A study of Mus musculus with 144 samples.

Results

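Gene expression of podocytes at 18 weeks of age was compared between diabetic BTBR ob/ob mice and BTBR wild-type (WT) mice, using the 14 podocyte libraries of that age among 144 samples of the series, of which 46 were podocyte libraries. Members were chosen by their labels alone: 7 ob/ob libraries (females 1, 2, 3 and 4, males 1, 2 and 4) and 7 WT libraries (females 2, 3 and 4, males 1, 2, 3 and 4). The ob/ob mice (BTBR.Cg-Lep ob/ob WiscJ) lack functional leptin and become obese, insulin resistant and hyperglycemic, and the WT mice were BTBR animals without the Lep mutation. Mice of both genotypes carried the same podocyte reporter, the Gt(ROSA)26Sor tm4 allele of Luo (ACTB-tdTomato,-EGFP) with a Cre transgene driven in podocytes, which switches these cells from Tomato to EGFP, so that the WT group also carries Cre and reporter. Glomeruli were isolated with magnetic beads and digested with enzymes in the warm under shaking before staining. Cells stained for CD45, the pan-leukocyte surface protein, were gated out. Podocytes were sorted as live cells positive for EGFP and negative for Tomato and for CD73. RNA was sequenced in bulk, and in bulk RNA fewer cells of a type and less RNA per cell cannot be told apart.

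Podocytes are the epithelial cells that wrap the glomerular capillaries with interdigitating foot processes. Adjacent foot processes are bridged by the slit diaphragm, a junction built on nephrin and anchored to an actin cytoskeleton, and the cells lay down much of the glomerular basement membrane (GBM), whose mature collagen IV is a trimer of the α3, α4 and α5 chains. Adult podocytes do not divide, and diabetic glomerulopathy is known for foot process effacement, GBM thickening and podocyte loss. Strain on the cytoskeleton is relayed to the nucleus by the actin-regulated MRTF/SRF coactivators and by YAP/TEAD, which is why targets of both were counted here beside the podocyte's own genes.

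The libraries held 14843968 to 19278304 counts and 18992 to 19956 detected genes, with both genotypes overlapping in both measures. No library held a count of Lep, so the mutated gene could not check the labels. The 16 podocyte markers summed to 54831 to 57913 CPM (counts-per-million, here without further scaling) in WT and 53615 to 57152 CPM in ob/ob libraries. Nphs1, Podxl, Synpo and Wt1 were present at high level in all 14, so the label podocyte held. Mesangial and glomerular endothelial (gEC) markers summed to far less. Mesangial markers reached 73.1 to 166 CPM in WT and 35.5 to 136 in ob/ob, and gEC markers 36.6 to 66.1 and 47.1 to 64.7. Other endothelial markers summed to 5925.5 to 6703 CPM in WT and 5883.5 to 8281 in ob/ob, mostly from Sema3g. Smooth muscle markers summed to 1555 to 1842 and 1713 to 1916 CPM, mostly from Mylk and Ntrk3. Proximal tubule markers reached 7.93 to 13.4 CPM in WT and 8.46 to 17.8 in 6 ob/ob libraries, but 38.6 CPM in ob/ob male 1, so counts are also given without that library. WT male 1 and ob/ob male 1 further stood apart in heat shock genes, as described with them.

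Of 17143 genes tested, 1966 (11.5%) were called changed at an adjusted p under 0.05 by edgeR's quasi-likelihood test, 1229 higher (7.17%) and 737 lower (4.3%) in ob/ob podocytes. The change was mostly small: the median absolute log2 fold change of called genes was 0.42, and 397 genes (2.32%) passed 2-fold, 331 higher (1.93%) and 66 lower (0.385%). Of the 397, 333 had a WT mean under 5 CPM, and 290 of those were higher in ob/ob. Among the 465 called genes with a WT mean of at least 100 CPM only 10 reached 2-fold. All 7 ob/ob libraries lay above the highest WT library for 463 genes (2.7%) and below the lowest for 197 (1.15%). Without ob/ob male 1, 1809 genes were called, 1685 of them shared. The labels number the libraries but do not say which mouse gave each, so p-values measure the spread between libraries. Below, levels are CPM after TMM scaling (which corrects for library composition), ranges run over the 7 libraries of a group, and log2 fold changes are ob/ob over WT with their SE. Counts of list members are to be read beside the shares of all genes tested: 11.5% called, 7.17% higher and 4.3% lower.

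The genes that rose most were largely close to silent in WT podocytes. Spon2 (chromosome 5, 33198184 to 33218455, minus strand of GRCm38), which encodes the secreted matrix protein spondin 2, had 0.0636 to 1.32 CPM in WT (median 0.534) and 16.3 to 87.6 CPM in ob/ob (median 31.4), with no overlap (log2 fold change 5.80 ± 0.47, adjusted p = 7.13e-13). Slpi (chromosome 2, 164354070 to 164389095, minus strand), the secretory leukocyte protease inhibitor, had 0.169 to 1.04 CPM in WT (median 0.389) and 2.10 to 27.7 CPM in ob/ob (median 15.9) (log2 fold change 5.03 ± 0.52, adjusted p = 4.52e-10). Its lowest ob/ob value belonged to male 2 and still exceeded every WT library. Thbd (chromosome 2, 148404466 to 148408188, minus strand) encodes thrombomodulin, the thrombin receptor that turns thrombin towards protein C activation. It had 0.572 to 3.20 CPM in WT (median 1.36) and 15.8 to 95.1 CPM in ob/ob (median 62.1) (log2 fold change 4.97 ± 0.37, adjusted p = 5.23e-14), again lowest in ob/ob male 2. Lgals3 (chromosome 14, 47367751 to 47386160, plus strand), the β-galactoside-binding lectin galectin-3, had 0.389 to 1.48 CPM in WT (median 0.630) and 7.64 to 25.9 CPM in ob/ob (median 19.0) (log2 fold change 4.33 ± 0.34, adjusted p = 3.62e-13). Clu (chromosome 14, 65968483 to 65981547, plus strand), the secreted chaperone and complement inhibitor clusterin, had 0.890 to 4.23 CPM in WT (median 1.94) and 22.5 to 79.8 CPM in ob/ob (median 38.7) (log2 fold change 4.15 ± 0.28, adjusted p = 2.97e-15). In all 5 genes the ob/ob libraries stood entirely above the WT libraries.

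**Figure D1:**
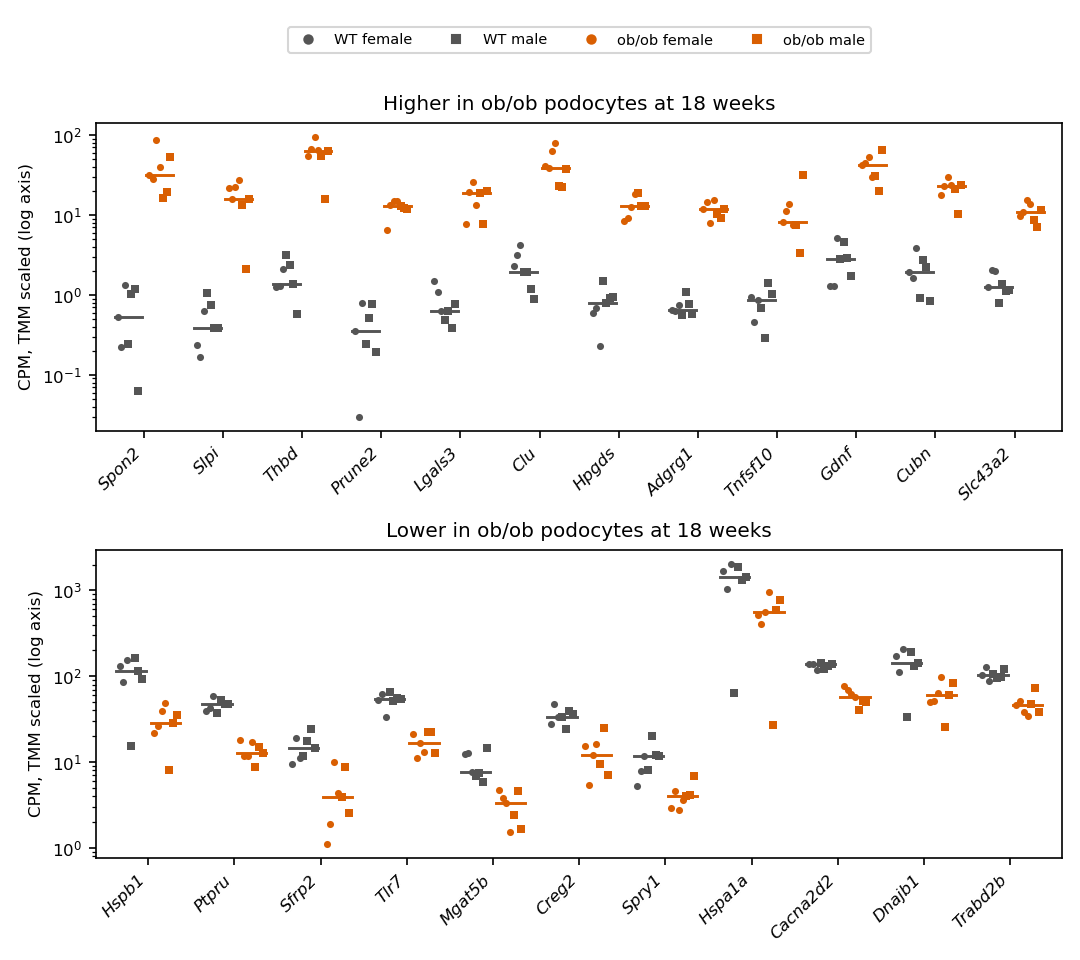
Levels of the 12 genes that rose most and of the genes that fell most (11 of the 12, without the pseudogene Hsp25-ps1) in ob/ob podocytes at 18 weeks, in CPM after TMM scaling on a log axis. Each point is 1 library (circles female, squares male; grey WT, orange ob/ob), lines are group medians, and a library at 0 is drawn at the foot of the axis. The upper 12 genes do not overlap between groups, and WT male 1 and ob/ob male 1 lie far below their groups in Hspa1a and Hspb1.

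The same held for the other 7 of the leading 12. Gdnf (chromosome 15, 7810846 to 7837575, plus strand), glial cell line-derived neurotrophic factor, the ligand of the RET receptor complex, had 1.3 to 5.09 CPM in WT (median 2.83) and 20.2 to 65.4 CPM in ob/ob (median 41.6) (log2 fold change 3.81 ± 0.40, adjusted p = 7.36e-10). Hpgds (chromosome 6, 65117293 to 65144908, minus strand), which makes prostaglandin D2, had 0.229 to 1.47 CPM in WT (median 0.799) and 8.35 to 18.7 CPM in ob/ob (median 12.9) (log2 fold change 4.06 ± 0.36, adjusted p = 7.92e-12). Cubn (chromosome 2, 13276338 to 13491813, minus strand), the endocytic receptor cubilin that binds albumin, had 0.826 to 3.83 CPM in WT (median 1.96) and 10.2 to 29.6 CPM in ob/ob (median 23.1) (log2 fold change 3.33 ± 0.27, adjusted p = 5.23e-13). The study used Cubn as a tubular marker in its single-cell data. Without ob/ob male 1, its log2 fold change by edgeR was 3.26 (adjusted p = 3.65e-12), and the part of tubule RNA in it was not tested. Tnfsf10, the death ligand TRAIL, rose from a median of 0.858 CPM (0.285 to 1.43) to 8.14 CPM (3.33 to 31.9). Adgrg1, an adhesion G protein-coupled receptor, rose from a median of 0.652 CPM (0.553 to 1.08) to 11.9 CPM (7.89 to 15.4). Prune2 rose from a median of 0.356 CPM (0 to 0.801) to 13.0 CPM (6.47 to 15.0) and Slc43a2, a transporter of neutral amino acids, from a median of 1.25 CPM (0.799 to 2.03) to 10.7 CPM (7.15 to 15.4). Their log2 fold changes were 3.89 ± 0.48, 3.95 ± 0.26, 4.86 ± 0.40 and 2.92 ± 0.26, and none of the 12 lost its call when any 1 library was left out.

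The leading genes were also read in the other sorted glomerular cells of the same age, scaled together with the podocytes. Slpi had mean levels of 0.00774 and 0.00814 CPM in mesangial cells and 0 and 0.460 CPM in gECs (WT and ob/ob, n = 7 each), Lgals3 0.0229 and 0.161 CPM in mesangial cells and 0.0588 and 0.290 CPM in gECs, and Gdnf 0.139 and 0.141 CPM in mesangial cells and 0.0950 and 0.321 CPM in gECs. Each was therefore higher in ob/ob podocytes than in either of the other sorted types. Thbd and Clu are expressed by the endothelium, at 509.9 ± 150.5 and 657 ± 87.3 CPM for Thbd and 76.3 ± 10.4 and 83.8 ± 18.4 CPM for Clu in gECs (SD, n = 7). In the podocyte libraries 0 of 12 gEC markers were called (2 at an unadjusted p under 0.05 and 0 by DESeq2), their median log2 fold change was 0.43, and the part of endothelial RNA in Thbd and Clu was not tested. Spon2 had 2.63 ± 2.38 and 47.1 ± 27.5 CPM in mesangial cells (SD, n = 7 each), close in ob/ob to its podocyte level. Of 12 mesangial markers 0 were called higher and 1 lower in the podocyte libraries, with a median log2 fold change of -0.49, and the part of mesangial RNA in Spon2 was not tested. By DESeq2 0 were higher and 2 lower, and 1 and 3 had an unadjusted p under 0.05.

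Of the called genes with no count in any WT library, 3 had counts in every ob/ob library. Kcnma1, the large-conductance calcium-activated potassium channel, had 7 to 71 counts in ob/ob libraries and was at least 76.1-fold higher against a floor of 3 counts over the WT group. Inhba, the activin A subunit, had 9 to 57 counts and was at least 63.2-fold higher, and C130060K24Rik had 8 to 25 counts and was at least 37.3-fold higher. These were singled out after their values were seen, for having no WT count and a count in every ob/ob library. The WT side of each fold is thus the chosen floor and not a measured level. The ob/ob side pools libraries with unequal counts. With no count in these WT libraries, the genes passed the low-count filter through other podocyte libraries. Their folds are a description only.

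The genes that fell most were heat shock genes, described with their list, and genes of mixed function. Ptpru (chromosome 4, 131768457 to 131838288, minus strand), a receptor tyrosine phosphatase, had 36.8 to 58.6 CPM in WT (median 47.3) and 8.75 to 18.1 CPM in ob/ob (median 12.8) (log2 fold change -1.76 ± 0.18, adjusted p = 3.59e-10). Tlr7 (chromosome X, 167304929 to 167330558, minus strand), the endosomal sensor of single-stranded RNA, had 33.1 to 66.3 CPM in WT (median 54.2) and 11.1 to 22.2 CPM in ob/ob (median 16.7) (log2 fold change -1.62 ± 0.17, adjusted p = 4.36e-10). Cacna2d2 (chromosome 9, 107399612 to 107529343, plus strand), an auxiliary subunit of voltage-gated calcium channels, had 119 to 141 CPM in WT (median 139) and 40.3 to 77.3 CPM in ob/ob (median 56.9) (log2 fold change -1.24 ± 0.13, adjusted p = 3.1e-10). In these 3 genes every ob/ob library was below every WT library. The same was true of Mgat5b, a glycosyltransferase of N-glycans, which fell from a median of 7.73 CPM (5.78 to 14.7) to 3.30 CPM (1.54 to 4.73), and of Trabd2b, a membrane metalloprotease that acts on Wnt proteins, which fell from a median of 102 CPM (88.4 to 127) to 45.7 CPM (34.4 to 72.1), with log2 fold changes of -1.61 ± 0.28 and -1.15 ± 0.12. Spry1, the Sprouty inhibitor of receptor tyrosine kinase signalling, fell from a median of 11.7 CPM (5.28 to 19.9) to 4.01 CPM (2.77 to 6.84) with some overlap (log2 fold change -1.37 ± 0.23, adjusted p = 2.41e-05). Creg2, a secreted glycoprotein, fell from a median of 33.6 CPM (24.0 to 47.3) to 12.1 CPM (5.43 to 25.0) (log2 fold change -1.38 ± 0.26, adjusted p = 0.000154). Sfrp2, a secreted Wnt antagonist, fell from a median of 14.7 CPM (9.49 to 24.4) to 3.89 CPM (1.11 to 10.1) (log2 fold change -1.66 ± 0.43, adjusted p = 0.00576). Sfrp2 is also on the list of mesangial markers, whose summed median went from 96.2 CPM in WT to 68.5 CPM in ob/ob. The part of mesangial RNA in that result was not tested.

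Several genes that mark podocytes did not pass the test. Nphs1 (nephrin) had 2614 to 3224 CPM in WT (median 2859.6) and 2634 to 4016 CPM in ob/ob (median 3198), Podxl (podocalyxin) 17619 to 19080.0 CPM in WT (median 18528) and 18417 to 20754 CPM in ob/ob (median 20164), and Wt1, the transcription factor of podocyte identity, 786 to 858 CPM in WT (median 824) and 756 to 837 CPM in ob/ob (median 813). Their log2 fold changes of 0.14 ± 0.06, 0.10 ± 0.04 and -0.05 ± 0.04 were not called (adjusted p = 0.18, 0.111 and 0.515), and the groups overlapped. Synpo, the actin-associated synaptopodin, had 4928 to 5254 CPM in WT (median 5192) and 5278 to 6194 CPM in ob/ob (median 5384) without overlap, yet its difference of 0.11 ± 0.05 was not called (adjusted p = 0.13). Kirrel2, a nephrin relative of the slit diaphragm, rose from a median of 36.2 CPM (30.5 to 40.1) to 55.7 CPM (41.4 to 76.9) without overlap (log2 fold change 0.62 ± 0.10, adjusted p = 1.11e-05).

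Of 19 slit diaphragm genes tested, 3 were called higher and 4 lower (36.84% called), with a median log2 fold change of -0.02 beside -0.00569 for all genes. The adaptor Nck2 (log2 fold change -0.21 ± 0.05) and the phospholipase gene Plce1 (-0.24 ± 0.05), which is mutated in familial nephrotic syndrome, were among those that fell. All 7 ob/ob libraries were below the WT libraries for Plce1. Of 16 podocyte markers, 6 fell and 1 rose. Thsd7a, a podocyte surface antigen of membranous nephropathy, had 2385 to 2815 CPM in WT (median 2556) and 1692 to 2169 CPM in ob/ob (median 2026), again without overlap (log2 fold change -0.38 ± 0.06, adjusted p = 1.13e-05). Among 16 podocyte transcription factors, 4 fell and 1 rose. Lmx1b, the nail-patella syndrome gene, had 547 to 622 CPM in WT (median 573) and 432 to 582 CPM in ob/ob (median 512) (log2 fold change -0.20 ± 0.06, adjusted p = 0.0109). Klf6 had 442 to 752 CPM in WT (median 621) and 226 to 499 CPM in ob/ob (median 349.7) (log2 fold change -0.71 ± 0.14, adjusted p = 0.000289). The 1 that rose, the calcineurin target Nfatc1 (log2 fold change 0.27 ± 0.09, adjusted p = 0.0466), lost its call when any 1 of 10 libraries, ob/ob male 1 among them, was left out (adjusted p 0.0548 to 0.132).

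Most actin regulators of the foot process were not called, and those called were higher. Of 27 tested, 6 were called higher and 0 lower by edgeR (22.22%, against 11.5% of all genes), with a median log2 fold change of 0.05. The counts were 6 and 0 by DESeq2, and 9 and 0 at an unadjusted p under 0.05. Myo1e, an unconventional myosin mutated in familial focal segmental glomerulosclerosis, had 814 to 983 CPM in WT (median 854) and 1008 to 1563 CPM in ob/ob (median 1336) (log2 fold change 0.60 ± 0.08, adjusted p = 2.85e-07). Inf2, a formin mutated in the same disease, had 287 to 345 CPM in WT (median 339) and 433 to 498 CPM in ob/ob (median 444) (log2 fold change 0.51 ± 0.06, adjusted p = 6.33e-09). Both groups were apart in both genes. Palld (palladin) had 328 to 378 CPM in WT (median 337) and 360.1 to 546 CPM in ob/ob (median 459.9) and Coro2b (coronin 2B) 317 to 353 CPM in WT (median 341) and 364 to 455 CPM in ob/ob (median 408), with log2 fold changes of 0.39 ± 0.07 and 0.27 ± 0.06. Without ob/ob male 1 this list had 5 higher and 0 lower.

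**Figure D2:**
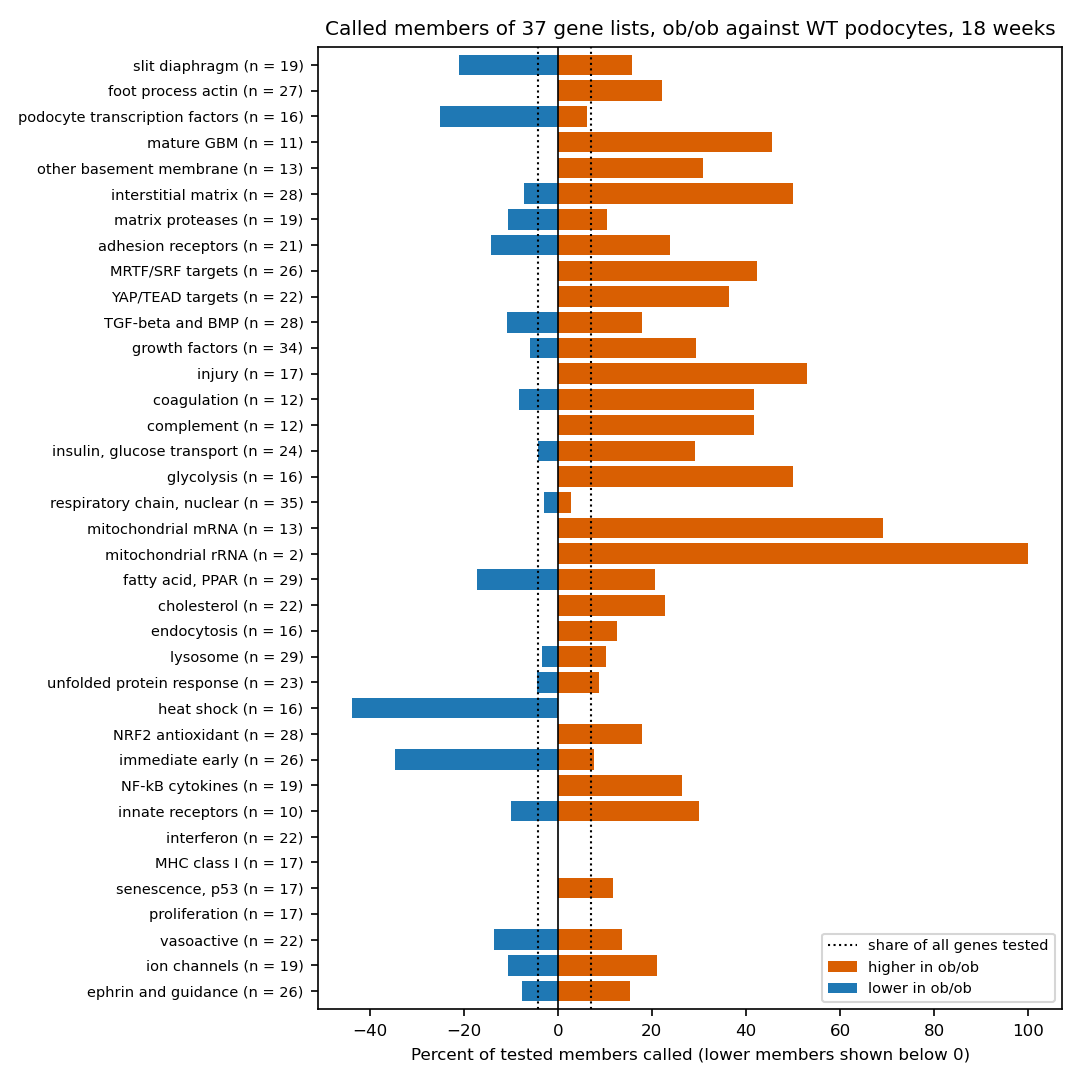
Share of the tested members of 37 gene lists called higher (orange, right of 0) and lower (blue, left of 0) in ob/ob podocytes at 18 weeks, in percent, with the number tested in parentheses. Dotted lines mark the shares of all 17143 genes, 7.17% higher and 4.3% lower. Matrix, injury, glycolysis and mitochondrial transcript lists reach furthest to the right, and heat shock and immediate early genes furthest to the left.

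The minor collagen IV chains encoded by Col4a1 and Col4a2 rose, and Col4a3 and Col4a4 rose by less. Col4a1 (chromosome 8, 11198423 to 11312826, minus strand) had 30.5 to 60.2 CPM in WT (median 42.5) and 86.2 to 199 CPM in ob/ob (median 123) (log2 fold change 1.53 ± 0.19, adjusted p = 7.04e-08). Col4a2 (chromosome 8, 11312805 to 11449287, plus strand) had 56.9 to 84.2 CPM in WT (median 68.7) and 179 to 342 CPM in ob/ob (median 226) (log2 fold change 1.74 ± 0.16, adjusted p = 3.9e-11). These chains form the collagen IV of most basement membranes and of the mesangium, and in both genes the groups were apart. Col4a3 (chromosome 1, 82586921 to 82722059, plus strand) had 6020.2 to 6764 CPM in WT (median 6269) and 6537 to 9150.1 CPM in ob/ob (median 7753) (log2 fold change 0.32 ± 0.06, adjusted p = 0.000325). Col4a4 (chromosome 1, 82448423 to 82586849, minus strand) had 3148 to 3431 CPM in WT (median 3267) and 3239.6 to 4519.8 CPM in ob/ob (median 3726) (log2 fold change 0.24 ± 0.06, adjusted p = 0.00569). The X-linked Col4a5 had 635 to 681 CPM in WT (median 660.1) and 577 to 815 CPM in ob/ob (median 773), a difference of 0.15 ± 0.07 that was not called (adjusted p = 0.162). On the deposited TPM scale, which divides by length, the ratio of Col4a1 to Col4a3 rose from 0.00846 ± 0.00202 to 0.0207 ± 0.00727 (SD, n = 7 each), and all 7 ob/ob libraries exceeded all WT libraries (exact permutation test, two-sided p = 0.000583, the smallest 7 against 7 allows). Col4a1 stood at 5007 ± 1082 and 8228 ± 1533 CPM in mesangial cells, far above the podocytes. The mesangial marker sums of the podocyte groups overlapped, and the part of mesangial RNA in Col4a1 was not tested.

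**Figure D3:**
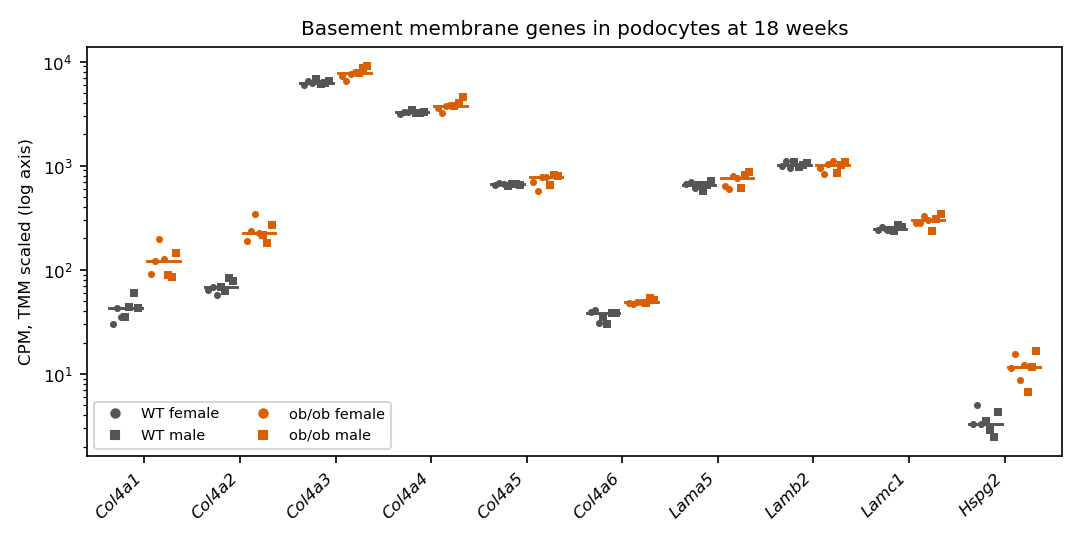
Levels of collagen IV, laminin and perlecan (Hspg2) genes in podocytes at 18 weeks, in CPM after TMM scaling on a log axis, with 1 point per library (circles female, squares male; grey WT, orange ob/ob) and lines at group medians. Col4a1, Col4a2, Col4a6 and Hspg2 are apart between groups, while Lama5 and Lamb2 overlap.

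The collagen IV genes lie in head-to-head pairs, which is why their start sites are shown. In GENCODE M21 on GRCm38 the starts of Col4a1 and Col4a2 on chromosome 8 are 21 bases apart. Those of Col4a4 and Col4a3 on chromosome 1 are 72 bases apart. The stretch between the latter starts (chr1:82586850-82586920, plus strand, Col4a3 reading to the right and Col4a4 to the left) carries no capitals because no motif was marked in it.
Col4a4 to Col4a3: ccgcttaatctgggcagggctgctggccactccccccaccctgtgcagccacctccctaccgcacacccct
The partners of each pair had similar log2 fold changes, 1.53 and 1.74 for one pair and 0.32 and 0.24 for the other.

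Of the laminin chains of the mature GBM, Lama5 and Lamb2 did not pass the test. Lama5 had 567 to 713 CPM in WT (median 659) and 603 to 867 CPM in ob/ob (median 766) (log2 fold change 0.16 ± 0.08, adjusted p = 0.238). Lamb2 had 956 to 1101 CPM in WT (median 1024) and 840.2 to 1105 CPM in ob/ob (median 1022) (log2 fold change -0.07 ± 0.06, adjusted p = 0.591). Lamc1, the laminin γ1 chain, was called (log2 fold change 0.24 ± 0.08, adjusted p = 0.0471), but the call ended when any 1 of 10 libraries was left out (adjusted p 0.0623 to 0.18). Of 11 genes of the mature GBM, 5 rose and 0 fell by edgeR (45.45% called, median 0.24), 5 and 0 by DESeq2, and 7 and 1 unadjusted. Those that rose by edgeR included Npnt (nephronectin, an integrin ligand made by podocytes), at 2218 to 2510.0 CPM in WT (median 2374) and 2480.1 to 3254 CPM in ob/ob (median 2881) (log2 fold change 0.27 ± 0.06, adjusted p = 0.000897), and Hspg2 (the heparan sulfate proteoglycan perlecan), at 2.47 to 5.08 CPM in WT (median 3.32) and 6.71 to 16.5 CPM in ob/ob (median 11.7) (log2 fold change 1.72 ± 0.30, adjusted p = 4.15e-05). Of 13 other basement membrane genes 4 rose and 0 fell by edgeR (30.77% called, median 0.56), 4 and 0 by DESeq2, and 5 and 0 unadjusted. Col4a1, Col4a2 and Col4a6 were among those that rose by edgeR.

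Interstitial matrix had the highest median of the 37 pathway lists. Of 28 tested genes, 14 rose and 2 fell (median 1.44), and all 7 ob/ob libraries were above WT for 7 of them. Levels were mostly low. Loxl2, a lysyl oxidase that cross-links collagen IV, was the most abundant called member at 103 to 129 CPM in WT (median 119) and 268 to 351 CPM in ob/ob (median 283) (log2 fold change 1.33 ± 0.09, adjusted p = 2.09e-14). Loxl1, a lysyl oxidase of elastic fibres, had 1.90 to 5.19 CPM in WT (median 3.37) and 5.78 to 14.4 CPM in ob/ob (median 7.42) (log2 fold change 1.38 ± 0.21, adjusted p = 2.69e-06). Bgn, the proteoglycan biglycan, had 5.15 to 12.6 CPM in WT (median 7.46) and 8.81 to 19.7 CPM in ob/ob (median 15.3) with overlap (log2 fold change 1.00 ± 0.22, adjusted p = 0.000869). Fn1 (fibronectin) had 1.52 to 4.57 CPM in WT (median 2.99) and 3.20 to 7.53 CPM in ob/ob (median 5.18) (log2 fold change 0.86 ± 0.25, adjusted p = 0.0179), and its call was lost without WT female 3, WT female 4 or ob/ob male 2 (adjusted p 0.0567 to 0.0598). Spp1 (osteopontin) had 0.0649 to 0.401 CPM in WT (median 0.237) and 0 to 2.94 CPM in ob/ob (median 0.537), so the groups overlapped. Its call (log2 fold change 2.25 ± 0.74, adjusted p = 0.0377) ended without any 1 of 7 libraries, and without ob/ob male 1 its adjusted p was 0.284. Leaving out 1 library at a time left between 10 and 14 higher calls on the list, and 14 without ob/ob male 1.

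Among 19 matrix proteases and inhibitors 2 rose and 2 fell (21.05% called, median 0.08). Mmp2, a gelatinase that cleaves collagen IV, had 1.48 to 4.62 CPM in WT (median 3.32) and 5.15 to 14.5 CPM in ob/ob (median 9.64) (log2 fold change 1.92 ± 0.30, adjusted p = 4.84e-06). Timp3, a matrix-bound metalloprotease inhibitor, had 2098 to 2576 CPM in WT (median 2226) and 2869.5 to 3353 CPM in ob/ob (median 3024) (log2 fold change 0.39 ± 0.06, adjusted p = 2.28e-06). Both were apart between groups. Plat, the tissue plasminogen activator, was lower (log2 fold change -0.18 ± 0.06, adjusted p = 0.0262), but the call was lost without WT female 4, ob/ob female 2 or ob/ob male 1 (adjusted p 0.0505 to 0.0906). Of 21 adhesion receptors 5 rose and 3 fell (median 0.07). Dag1 (dystroglycan, a laminin receptor) had 2029 to 2222 CPM in WT (median 2073) and 2793 to 3344 CPM in ob/ob (median 2862) (log2 fold change 0.49 ± 0.05, adjusted p = 3e-09). Itga5, the fibronectin receptor subunit, had 8.28 to 14.3 CPM in WT (median 10.7) and 11.5 to 22.7 CPM in ob/ob (median 15.2) (log2 fold change 0.59 ± 0.12, adjusted p = 0.000342). Itgb8, the integrin β8 that activates latent TGF-beta, had 436 to 527 CPM in WT (median 454) and 299.6 to 429 CPM in ob/ob (median 340.0) (log2 fold change -0.40 ± 0.06, adjusted p = 2.25e-06). Dag1 was above and Itgb8 below WT in every ob/ob library. The syndecan gene Sdc2 fell from a median of 225 CPM (207 to 241) to 169 CPM (154 to 213).

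Targets of MRTF/SRF rose in part. Of 26 tested, 11 were called higher and 0 lower by edgeR (42.31% called), with a median log2 fold change of 0.25. The counts were 11 and 0 by DESeq2, 13 and 1 unadjusted, and 11 and 1 on the median-centred TPM scale. Acta2 (chromosome 19, 34241090 to 34255590, minus strand), smooth muscle actin, had 0 to 1.43 CPM in WT (median 0.343) and 1.60 to 7.78 CPM in ob/ob (median 3.64) (log2 fold change 2.83 ± 0.69, adjusted p = 0.00286). Tagln (chromosome 9, 45929619 to 45936058, minus strand), the actin-binding transgelin, had 2.64 to 8.70 CPM in WT (median 4.06) and 10.5 to 23.0 CPM in ob/ob (median 14.3) (log2 fold change 1.73 ± 0.27, adjusted p = 6.99e-06). Mustn1, a small nuclear protein of muscle, had 1.54 to 3.24 CPM in WT (median 2.40) and 5.43 to 17.2 CPM in ob/ob (median 13.8) (log2 fold change 2.26 ± 0.25, adjusted p = 2.91e-09). Csrp1, a LIM protein of actin filaments, had 12.2 to 28.3 CPM in WT (median 15.4) and 27.4 to 48.4 CPM in ob/ob (median 37.4) (log2 fold change 0.93 ± 0.22, adjusted p = 0.00203). Cnn2 (calponin 2) had 24.6 to 32.0 CPM in WT (median 30.4) and 32.9 to 60.1 CPM in ob/ob (median 50.6) (log2 fold change 0.76 ± 0.11, adjusted p = 9.66e-07). Groups were apart in Acta2, Tagln, Mustn1 and Cnn2 and overlapped in Csrp1. The study names Acta2 and Tagln from its own data, so they are not independent evidence for the list. The 10 smooth muscle markers summed to 1555 to 1842 CPM in WT and 1713 to 1916 in ob/ob. Most of that sum was Mylk (medians of 1282 and 1401 CPM without TMM scaling) and Ntrk3 (315 and 338 CPM). Of 7 tested, 4 were called higher: Ntrk3, and Acta2, Tagln and Mustn1, which are the MRTF/SRF targets described above. Cnn1, Lmod1 and Actg2 were under the filter. Mesangial cells held Acta2 at 14.8 ± 7.24 and 64.5 ± 36.4 CPM (SD, n = 7 each). How far muscle or mesangial RNA takes part was not tested. The count was 11 also without ob/ob male 1.

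The promoters of 4 of these genes are shown because MRTF/SRF acts through the CArG box (CC, then 6 bases of A or T, then GG) and TEAD through CATTCC, read on both strands. Each sequence covers the 250 bases before the start site in RefSeq annotation of GRCm38.p6, 5′ to 3′ on the strand of the gene, with the motif in capitals. For Cnn2 (chr10:79988350-79988599, plus strand) and Myl9 (chr2:156775214-156775463, plus strand) the capitals are the CArG box, 56 and 161 bases before the start, and for Acta2 (chr19:34255374-34255623, minus strand) and Ankrd1 (chr19:36119845-36120094, minus strand) they are CATTCC in reverse complement (GGAATG).
Cnn2: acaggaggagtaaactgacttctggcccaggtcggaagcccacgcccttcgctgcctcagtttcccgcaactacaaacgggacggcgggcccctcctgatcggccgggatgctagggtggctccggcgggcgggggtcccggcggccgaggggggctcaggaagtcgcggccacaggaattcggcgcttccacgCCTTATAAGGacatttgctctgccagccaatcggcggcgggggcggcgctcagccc
Myl9: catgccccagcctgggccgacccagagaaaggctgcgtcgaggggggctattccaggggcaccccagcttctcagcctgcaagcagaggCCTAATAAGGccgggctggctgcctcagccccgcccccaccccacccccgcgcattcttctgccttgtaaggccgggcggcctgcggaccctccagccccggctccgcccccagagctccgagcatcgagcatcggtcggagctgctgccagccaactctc
Acta2: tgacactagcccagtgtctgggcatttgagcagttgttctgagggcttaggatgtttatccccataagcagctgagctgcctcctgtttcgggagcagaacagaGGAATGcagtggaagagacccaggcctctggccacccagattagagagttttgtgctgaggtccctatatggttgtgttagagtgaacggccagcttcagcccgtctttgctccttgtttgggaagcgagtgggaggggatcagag
Ankrd1: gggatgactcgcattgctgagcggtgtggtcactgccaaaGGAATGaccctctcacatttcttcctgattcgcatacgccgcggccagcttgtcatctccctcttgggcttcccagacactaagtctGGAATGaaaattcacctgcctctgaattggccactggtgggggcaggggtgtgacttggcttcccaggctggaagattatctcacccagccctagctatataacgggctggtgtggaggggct
A CArG box lay in the window (these 250 bases and the next 50) in 10 of the 32 RefSeq windows of MRTF/SRF targets, 31.25%, against 1.629% of all 32851 windows. These windows belong to 9 genes, of which 8 were tested and only Cnn2 was called. Myl9, the regulatory myosin light chain, carries the box and had 1.17 to 3.96 CPM in WT (median 2.26) and 1.88 to 4.12 CPM in ob/ob (median 2.41) (log2 fold change 0.21 ± 0.29, adjusted p = 0.771). Among the 15 tested targets whose window lacks an exact box, Acta2 among them, 9 were called higher. Only exact matches were counted. Stretches close to the box, such as ccctatatgg in the printed Acta2 sequence, were not marked, so these counts do not show that a target lacks an SRF site. The box lay in 1.127% of windows of all genes called higher, against 1.346% of those of genes tested. A list of known targets can hold its own motif by choice, so the list shares are a description only. CATTCC was found in 8 of the 19 windows of YAP/TEAD targets (42.11%, against 14.66% of all windows), and 3 of the 8 genes that hold it, Ankrd1, Axl and Crim1, were called higher. It lay in 14.17% of windows of all genes called higher, against 12.6% of those of genes tested. Of the 17143 tested genes 11062 have a window.

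Of 22 YAP/TEAD targets tested, 8 rose and 0 fell by edgeR (36.36% called, median 0.17), 8 and 0 by DESeq2, and 9 and 1 unadjusted. Ctgf (chromosome 10, 24595442 to 24598683, plus strand), the matricellular connective tissue growth factor, had 398 to 1172 CPM in WT (median 621) and 896 to 2379 CPM in ob/ob (median 1470.5) (log2 fold change 1.16 ± 0.24, adjusted p = 0.000517), with overlap. Ankrd1, a nuclear ankyrin repeat protein, had 5.34 to 12.1 CPM in WT (median 7.72) and 8.93 to 21.8 CPM in ob/ob (median 14.6) (log2 fold change 0.77 ± 0.17, adjusted p = 0.000744). Axl, a receptor tyrosine kinase for Gas6, had 228 to 291 CPM in WT (median 266) and 369 to 544 CPM in ob/ob (median 428) (log2 fold change 0.73 ± 0.09, adjusted p = 1.59e-08). Ccdc80, a matrix-associated protein, had 64.6 to 95.4 CPM in WT (median 79.0) and 134 to 224 CPM in ob/ob (median 147) (log2 fold change 1.01 ± 0.11, adjusted p = 1.51e-09). Axl and Ccdc80 were apart between groups. The list had 9 higher calls without ob/ob male 1. Cyr61, a matricellular relative of Ctgf and the other classical target, had 459 to 1154 CPM in WT (median 941) and 396 to 1011 CPM in ob/ob (median 609) and was not called (log2 fold change -0.44 ± 0.20, adjusted p = 0.17).

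In TGF-beta and BMP signalling 5 of 28 tested genes rose and 3 fell (median 0.05). Bmp7, a BMP ligand of the developing and adult glomerulus, had 263 to 295 CPM in WT (median 271) and 367 to 441 CPM in ob/ob (median 395) without overlap (log2 fold change 0.55 ± 0.05, adjusted p = 1.52e-10). Smad7, the inhibitory Smad, had 5.84 to 9.47 CPM in WT (median 8.28) and 9.68 to 15.5 CPM in ob/ob (median 12.0), also apart (log2 fold change 0.60 ± 0.13, adjusted p = 0.000551). Bambi, a decoy receptor of the family, had 32.8 to 38.7 CPM in WT (median 36.7) and 22.1 to 30.4 CPM in ob/ob (median 23.4) and was lower in every ob/ob library (log2 fold change -0.57 ± 0.08, adjusted p = 1.84e-06). Ltbp4, which tethers latent TGF-beta in the matrix, fell from a median of 209 CPM (147 to 271) to 127 CPM (97.9 to 169) (log2 fold change -0.69 ± 0.12, adjusted p = 3.37e-05). The ligand gene Tgfb1 had 13.9 to 17.9 CPM in WT (median 16.2) and 14.4 to 17.9 CPM in ob/ob (median 16.1) and was not called (adjusted p = 1).

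Growth factor and vascular signals included 10 genes higher and 2 lower of 34 tested (median 0.27). Vegfa (chromosome 17, 46016993 to 46032369, minus strand), the podocyte signal that maintains the glomerular endothelium, had 2648 to 2939.7 CPM in WT (median 2798) and 3066 to 3386 CPM in ob/ob (median 3173), apart between groups by a small step (log2 fold change 0.17 ± 0.05, adjusted p = 0.0109). Igfbp7, a secreted IGF-binding protein, had 1602 to 1804 CPM in WT (median 1689) and 2095 to 2504 CPM in ob/ob (median 2168) (log2 fold change 0.40 ± 0.07, adjusted p = 2.17e-05). Gdnf is the most changed member of this list. The class 3 semaphorin Sema3f fell from a median of 65.2 CPM (51.6 to 71.0) to 40.0 CPM (35.8 to 56.9) (log2 fold change -0.50 ± 0.13, adjusted p = 0.00853). Fgf11 fell from a median of 6.36 CPM (4.22 to 7.53) to 4.25 CPM (2.22 to 5.87) (log2 fold change -0.52 ± 0.15, adjusted p = 0.0145). Sema3g, a semaphorin of podocytes that is also on the endothelial list, rose from a median of 5981 CPM (5528 to 6380.0) to 7161 CPM (5788 to 8170.5) (log2 fold change 0.28 ± 0.07, adjusted p = 0.00581). Without ob/ob male 1 the list had 9 genes higher and 2 lower.

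Of 26 ephrin and guidance genes 4 rose and 2 fell (median 0.12). Epha6, an ephrin-A receptor, had 27.0 to 45.4 CPM in WT (median 34.8) and 110.0 to 212 CPM in ob/ob (median 149.6) (log2 fold change 2.14 ± 0.18, adjusted p = 2.76e-12), and its relative Epha2 had 89.4 to 124 CPM in WT (median 115) and 128 to 169.5 CPM in ob/ob (median 145) (log2 fold change 0.37 ± 0.10, adjusted p = 0.00905). Ephb1 went the other way, with 236 to 268 CPM in WT (median 246) and 176 to 223 CPM in ob/ob (median 197) (log2 fold change -0.33 ± 0.06, adjusted p = 8.75e-05). All 3 receptors were apart between groups. Plxnb1, a semaphorin receptor, rose from a median of 483 CPM (462 to 508) to 597 CPM (544 to 785) (log2 fold change 0.39 ± 0.07, adjusted p = 3.95e-05).

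Ion channels and vasoactive genes moved both ways. Of 19 ion channels and pumps 4 rose and 2 fell (median 0.11): Trpv4, an osmotically and mechanically gated cation channel, had 2.92 to 6.29 CPM in WT (median 5.16) and 6.29 to 12.6 CPM in ob/ob (median 10.5) (log2 fold change 0.86 ± 0.19, adjusted p = 0.000833). Pkd2 (polycystin-2) had 104 to 119.7 CPM in WT (median 114) and 119.9 to 153 CPM in ob/ob (median 137) (log2 fold change 0.25 ± 0.05, adjusted p = 0.000279). Trpc1 was lower (log2 fold change -0.39 ± 0.13, adjusted p = 0.0495), with a call that ended without any 1 of 9 libraries (adjusted p 0.0557 to 0.138). Trpc6, the cation channel mutated in familial focal segmental glomerulosclerosis, had 0 to 0.858 CPM in WT (median 0.389) and 0.323 to 1.94 CPM in ob/ob (median 0.539) and was not called (log2 fold change 0.96 ± 0.69, adjusted p = 0.477). Of 22 vasoactive genes 3 rose and 3 fell (median 0.11). Npr1, the receptor of atrial natriuretic peptide, had 751 to 847 CPM in WT (median 809) and 547 to 800.1 CPM in ob/ob (median 669.7) (log2 fold change -0.27 ± 0.07, adjusted p = 0.00314), and the clearance receptor Npr3 1109 to 1259 CPM in WT (median 1247) and 906 to 1199.8 CPM in ob/ob (median 971) (log2 fold change -0.22 ± 0.06, adjusted p = 0.00647). The purinergic channel P2rx4 rose from a median of 84.1 CPM (77.9 to 86.3) to 96.3 CPM (83.0 to 106) (log2 fold change 0.21 ± 0.05, adjusted p = 0.00305). The peptidase gene Mme (neprilysin) was lower (log2 fold change -0.19 ± 0.06, adjusted p = 0.037), a call lost without any 1 of 8 libraries (adjusted p 0.053 to 0.0861).

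Of 17 genes linked to podocyte injury, 9 rose and 0 fell by edgeR (52.94% called, median 0.39), 9 and 0 by DESeq2, and 12 and 0 unadjusted. Beside Clu and Lgals3, Cldn1 (claudin-1, a tight junction protein of parietal epithelium) had 11.7 to 23.6 CPM in WT (median 14.2) and 23.6 to 54.8 CPM in ob/ob (median 36.9) (log2 fold change 1.15 ± 0.18, adjusted p = 1.01e-05). Its ranges met at their edges. Anxa3 (annexin A3) had 147 to 202 CPM in WT (median 169) and 194 to 269 CPM in ob/ob (median 228) (log2 fold change 0.44 ± 0.08, adjusted p = 6.7e-05). Of 6 parietal markers tested, 2 were called higher (Cldn1 and Cd44) and 2 lower, with a median log2 fold change of 0.64. Their sum was 176 to 203 CPM in ob/ob against 209 to 243 in WT and is mostly Ncam1, which fell from a median of 93.1 CPM (87.0 to 102) to 62.3 CPM (51.3 to 73.8), and Krt7, which fell from a median of 99.7 CPM (81.8 to 118) to 73.8 CPM (61.0 to 94.4). Cd44, an adhesion receptor, had 0.184 to 1.75 CPM in WT (median 0.628) and 1.34 to 3.76 CPM in ob/ob (median 1.88) (log2 fold change 1.59 ± 0.34, adjusted p = 0.000712). The part of parietal cells in Cldn1 and Cd44 was not tested. The injury list had 8 higher calls without ob/ob male 1.

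Coagulation and complement lists had mostly higher calls. Of 12 coagulation genes 5 rose and 1 fell (median 0.57). Beside Thbd, F2r, the thrombin receptor PAR1, had 189 to 262 CPM in WT (median 207) and 353 to 515 CPM in ob/ob (median 389) (log2 fold change 0.97 ± 0.09, adjusted p = 2.08e-11). Pros1, protein S, the cofactor of activated protein C and ligand of Axl-family receptors, had 213 to 371 CPM in WT (median 290.1) and 386 to 862 CPM in ob/ob (median 474) (log2 fold change 1.03 ± 0.14, adjusted p = 4.77e-07). All 3 were apart between groups. Of 12 complement genes 5 rose and 0 fell by edgeR (41.67% called, median 0.19), 5 and 0 by DESeq2, and 5 and 1 unadjusted. Among those that rose were the C1 proteases C1ra at 7.55 to 18.5 CPM in WT (median 13.0) and 12.5 to 44.5 CPM in ob/ob (median 19.1) (log2 fold change 0.86 ± 0.22, adjusted p = 0.00464) and C1s1 at 4.90 to 17.0 CPM in WT (median 8.96) and 12.2 to 29.4 CPM in ob/ob (median 14.9) (log2 fold change 0.86 ± 0.20, adjusted p = 0.00172). The C1ra call ended without ob/ob male 2 (adjusted p = 0.0614). Cd59a, an inhibitor of the membrane attack complex, rose from a median of 96.2 CPM (88.2 to 108) to 118 CPM (98.0 to 132) (log2 fold change 0.24 ± 0.07, adjusted p = 0.016), a call lost without ob/ob female 4 (adjusted p = 0.055).

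Of the innate receptor list 40% was called, and of the NF-kB and cytokine list 26.32%, against 11.5% of all genes tested. Among 10 innate receptors 3 rose and 1 fell: Tlr4, the endotoxin receptor, had 1.37 to 2.66 CPM in WT (median 2.09) and 7.37 to 15.1 CPM in ob/ob (median 9.53) (log2 fold change 2.26 ± 0.22, adjusted p = 7.32e-11). Tlr3, the receptor of double-stranded RNA, had 4.03 to 5.88 CPM in WT (median 4.97) and 6.46 to 10.2 CPM in ob/ob (median 8.52) (log2 fold change 0.71 ± 0.13, adjusted p = 0.00013). Both were apart between groups, and Tlr7 fell as described above. Of 19 NF-kB and cytokine genes 5 rose and 0 fell by edgeR (median -0.05), 5 and 2 by DESeq2, and 5 and 3 unadjusted. With ob/ob male 1 left out, 4 were higher and 2 lower. Tnfaip2 had 119 to 158 CPM in WT (median 139) and 173 to 197 CPM in ob/ob (median 179.5) (log2 fold change 0.41 ± 0.09, adjusted p = 0.000608). Tnfrsf12a, the TWEAK receptor, had 19.2 to 28.3 CPM in WT (median 21.7) and 26.6 to 55.0 CPM in ob/ob (median 40.5) (log2 fold change 0.74 ± 0.16, adjusted p = 0.000643). Il18 had 4.26 to 8.58 CPM in WT (median 6.91) and 7.48 to 12.7 CPM in ob/ob (median 12.0) (log2 fold change 0.73 ± 0.13, adjusted p = 3.6e-05). The chemokine Cx3cl1 (log2 fold change 0.27 ± 0.09, adjusted p = 0.0494) lost its call without any 1 of 11 libraries (adjusted p 0.0553 to 0.182). Immune markers summed to 6.49 to 8.17 CPM in WT and 7.27 to 15.2 in ob/ob. Of 5 immune markers tested 2 were called higher and 0 lower (0 to 2 higher with 1 library left out, 0 with marker covariates). Cd74, the MHC class II invariant chain, had 0 to 0.430 CPM in WT (median 0.191) and 0.134 to 2.74 CPM in ob/ob (median 0.706) (log2 fold change 2.75 ± 0.91, adjusted p = 0.0395). H2-Aa, an MHC class II chain, had 0 to 0.123 CPM in WT (median 0) and 0 to 1.24 CPM in ob/ob (median 0.120) (log2 fold change 3.82 ± 1.22, adjusted p = 0.0306). Groups overlapped in both, and the calls ended without any 1 of 8 libraries for Cd74 (adjusted p 0.0613 to 0.129) and of 7 for H2-Aa (adjusted p 0.0589 to 0.121). Ptprc, which encodes CD45, was under the filter, at up to 0.125 CPM in WT and 0.337 CPM in ob/ob, and the part of immune cells in these values was not tested. None of 22 interferon-response genes (median 0.09), 17 MHC class I genes (median 0.04) and 17 proliferation genes (median 0.10) was called by edgeR or DESeq2, and 2, 1 and 0 of them had an unadjusted p under 0.05. Cdkn1a, the cell cycle inhibitor p21, had 0.178 to 1.10 CPM in WT (median 0.763) and 0.556 to 2.11 CPM in ob/ob (median 1.34) and was not called (log2 fold change 0.92 ± 0.48, adjusted p = 0.25). Of 17 senescence and p53 genes 2 rose and 0 fell by edgeR (median 0.14), 2 and 0 by DESeq2, and 5 and 0 unadjusted. The called share of 11.76% was near the 11.5% of all genes tested. Glb1, the lysosomal β-galactosidase, was among those that rose (log2 fold change 0.40 ± 0.12, adjusted p = 0.0185), and its call was lost without WT female 3 or ob/ob male 1 (adjusted p 0.0712 to 0.0791).

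Mitochondrial transcripts took a larger share of the counts in ob/ob podocytes. The share was 7.13 to 8.92% in WT libraries and 9.84 to 13.2% in ob/ob libraries, without overlap. The means were 8.18% ± 0.719 and 11.4% ± 1.07 (SD, n = 7 each), a difference of 3.24 percentage points (exact permutation test, two-sided p = 0.000583, adjusted over 5 tests 0.000728, the smallest raw p that 7 against 7 allows). Most of it was mitochondrial rRNA, which rose from 6.63% to 9.34%, while mitochondrial mRNA rose from 1.55% to 2.08% (same p each). Ribosomal cDNA was depleted during library preparation, and the part of that step in the rRNA share was not tested. Leaving out 1 library at a time kept the difference between 2.94 and 3.50 points. Both rRNA genes rose, mt-Rnr2 at 33602 to 42187 CPM in WT (median 39902) and 49581 to 70914 CPM in ob/ob (median 59118) (log2 fold change 0.61 ± 0.07, adjusted p = 6.59e-09). Of 13 mitochondrial mRNAs 9 rose and 0 fell by edgeR (69.23% called, median 0.48), 9 and 0 by DESeq2, and 11 and 0 unadjusted. mt-Co1, a subunit of cytochrome c oxidase, had 3075 to 3982 CPM in WT (median 3642) and 4123 to 6219.7 CPM in ob/ob (median 5445) (log2 fold change 0.56 ± 0.09, adjusted p = 7.54e-06), and mt-Nd6, the complex I subunit encoded on the other strand, 456 to 607 CPM in WT (median 574) and 673 to 1023 CPM in ob/ob (median 885) (log2 fold change 0.66 ± 0.09, adjusted p = 3.58e-07).

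The nuclear genes of the respiratory chain did not follow. Of 35 tested, 1 rose and 1 fell (median -0.01). The gene that fell was the complex I subunit gene Ndufs7, at 30.6 to 37.0 CPM in WT (median 34.0) and 25.5 to 30.8 CPM in ob/ob (median 30.3) (log2 fold change -0.24 ± 0.07, adjusted p = 0.0194). The call of Ndufs7 was lost without WT male 3 or ob/ob male 1 (adjusted p 0.0507 to 0.0541).

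**Figure D4:**
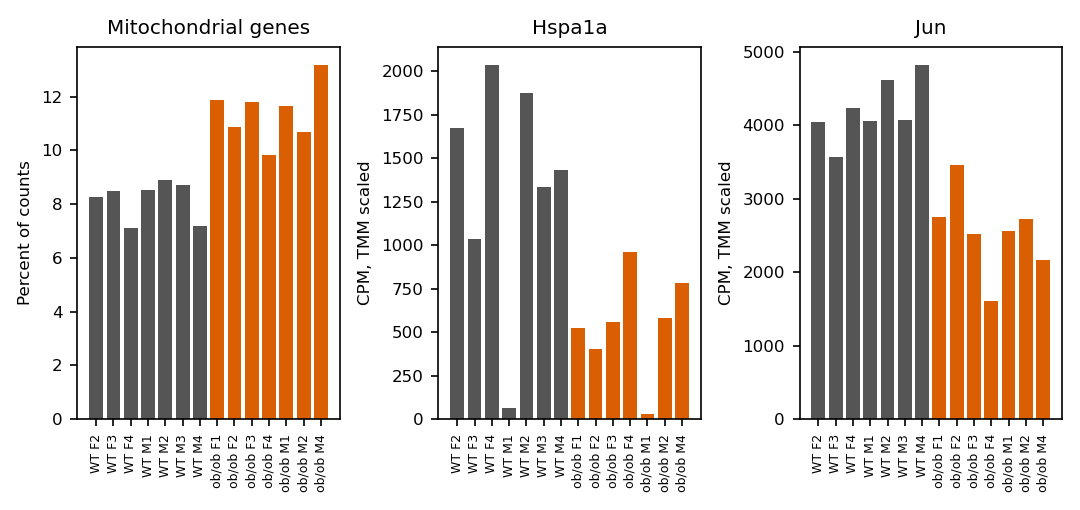
Values in each of the 14 podocyte libraries at 18 weeks (F female, M male; grey WT, orange ob/ob): mitochondrial genes as a percent of counts, and Hspa1a and Jun in CPM after TMM scaling, all axes from 0. The mitochondrial share is higher in every ob/ob library, Jun is lower in every ob/ob library, and Hspa1a is at 64.1 CPM in WT male 1 and 26.8 CPM in ob/ob male 1.

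Called glycolysis genes were all higher. Of 16 genes tested 8 rose and 0 fell by edgeR (50% called, median 0.24), 10 and 0 by DESeq2, and 11 and 0 unadjusted. The higher calls numbered 6 without ob/ob male 1 and 4 on the median-centred TPM scale. Pkm, pyruvate kinase, had 176 to 214 CPM in WT (median 194) and 208 to 310.1 CPM in ob/ob (median 290.2) (log2 fold change 0.47 ± 0.08, adjusted p = 2.36e-05). Tpi1, triosephosphate isomerase, had 27.3 to 33.8 CPM in WT (median 30.8) and 33.8 to 47.3 CPM in ob/ob (median 42.7) (log2 fold change 0.42 ± 0.08, adjusted p = 9.38e-05). Ldhb, a lactate dehydrogenase subunit, had 2.86 to 7.30 CPM in WT (median 3.44) and 4.73 to 9.18 CPM in ob/ob (median 6.95) (log2 fold change 0.74 ± 0.19, adjusted p = 0.00417). Pfkfb3, which makes the activator of phosphofructokinase, had 11.3 to 17.4 CPM in WT (median 12.5) and 15.2 to 92.5 CPM in ob/ob (median 25.9) (log2 fold change 1.26 ± 0.25, adjusted p = 0.000264), and its highest value was that of ob/ob male 4. Of 24 genes of insulin signalling and glucose transport 7 rose and 1 fell (median 0.06; without ob/ob male 1, 6 higher and 3 lower). Insr, the insulin receptor, had 70.1 to 76.3 CPM in WT (median 74.2) and 56.7 to 81.5 CPM in ob/ob (median 73.3) and was not called (log2 fold change -0.03 ± 0.06, adjusted p = 0.87). Slc2a12, a glucose transporter, had 73.7 to 91.5 CPM in WT (median 80.7) and 94.2 to 131 CPM in ob/ob (median 102), apart between groups (log2 fold change 0.35 ± 0.06, adjusted p = 7.13e-05), and its relative Slc2a8 5.91 to 7.68 CPM in WT (median 6.61) and 6.82 to 10.8 CPM in ob/ob (median 9.30) (log2 fold change 0.44 ± 0.11, adjusted p = 0.00356). Irs1, an insulin receptor substrate, rose (log2 fold change 0.52 ± 0.15, adjusted p = 0.0179), a call lost without WT female 2, WT female 3 or ob/ob male 4 (adjusted p 0.0508 to 0.0928). Txnip, a glucose-induced inhibitor of thioredoxin, had 295 to 411 CPM in WT (median 365) and 417 to 670.1 CPM in ob/ob (median 465) without overlap (log2 fold change 0.42 ± 0.13, adjusted p = 0.0206), but its call ended without WT male 4 or ob/ob male 1 (adjusted p 0.0652 to 0.102).

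Lipid genes were mixed. Of 29 fatty acid and PPAR genes 6 rose and 5 fell (median 0.12). Scd1, the stearoyl-CoA desaturase, had 3.31 to 8.28 CPM in WT (median 5.61) and 4.52 to 19.7 CPM in ob/ob (median 10.9) (log2 fold change 0.84 ± 0.20, adjusted p = 0.00268), whereas Fasn, fatty acid synthase, had 11 to 16.9 CPM in WT (median 14.0) and 6.39 to 13.3 CPM in ob/ob (median 9.06) (log2 fold change -0.51 ± 0.14, adjusted p = 0.00887). The cholesterol exporter genes were lower: Abca1 had 81.8 to 108 CPM in WT (median 89.9) and 41.4 to 105 CPM in ob/ob (median 47.0) (log2 fold change -0.69 ± 0.16, adjusted p = 0.00216) and Abcg1 25.9 to 42.1 CPM in WT (median 37.5) and 14.4 to 32.9 CPM in ob/ob (median 16.3) (log2 fold change -0.86 ± 0.16, adjusted p = 0.000116), with ob/ob male 2 the highest ob/ob library in each. In the cholesterol pathway 5 of 22 genes rose and 0 fell by edgeR (22.73% called, median 0.09). The counts were 4 and 0 by DESeq2, 9 and 1 unadjusted, and 3 and 1 on the median-centred TPM scale. Sc5d, a sterol desaturase, had 9.03 to 14.2 CPM in WT (median 11.4) and 15.3 to 20.2 CPM in ob/ob (median 17.9) (log2 fold change 0.60 ± 0.10, adjusted p = 1.18e-05). Hsd17b7 rose from a median of 8.52 CPM (8.42 to 10.3) to 12.5 CPM (11.4 to 14.1) (log2 fold change 0.51 ± 0.11, adjusted p = 0.000739). In both biosynthetic genes the groups were apart. Cyp51, a sterol demethylase, rose from a median of 7.38 CPM (5.78 to 8.23) to 9.80 CPM (8.01 to 10.4) (log2 fold change 0.39 ± 0.11, adjusted p = 0.0149).

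Endocytosis, lysosome and unfolded protein response lists held called shares of 12.5%, 13.8% and 13.0%, near the 11.5% of all genes. Of 16 endocytosis genes 2 rose (median 0.05), Cubn and, at 0.127 to 1.60 CPM in WT (median 0.830) and 0.805 to 6.77 CPM in ob/ob (median 1.13), its partner Lrp2, the megalin gene (log2 fold change 1.77 ± 0.58, adjusted p = 0.036), which is also a proximal tubule marker. Of 29 lysosome and autophagy genes 3 rose and 1 fell (median 0.09). Ctsh (cathepsin H) had 51.4 to 68.2 CPM in WT (median 56.1) and 20.1 to 40.7 CPM in ob/ob (median 31.2), below WT in every ob/ob library (log2 fold change -0.95 ± 0.15, adjusted p = 6.27e-06). Gusb (β-glucuronidase) had 11.7 to 16.2 CPM in WT (median 12.7) and 16.4 to 21.6 CPM in ob/ob (median 19.6), above it (log2 fold change 0.50 ± 0.09, adjusted p = 0.000127). With the tubule and immune marker sums as covariates the list had 10 higher and 1 lower. The calls of Ctsd and Hexa (log2 fold change 0.18 ± 0.06, adjusted p = 0.0297 and log2 fold change 0.26 ± 0.08, adjusted p = 0.0192) were lost without any 1 of 8 and of 4 libraries (adjusted p 0.0507 to 0.091 and adjusted p 0.0614 to 0.0765). Of 23 genes of the unfolded protein response 2 rose and 1 fell (median 0.06). These were Sel1l (log2 fold change 0.20 ± 0.05, adjusted p = 0.00436), the chaperone gene Hyou1 (log2 fold change 0.19 ± 0.07, adjusted p = 0.0495) and Atf3 (log2 fold change -0.70 ± 0.22, adjusted p = 0.0298), the last 2 with calls lost without any 1 of 10 and of 6 libraries (adjusted p 0.0515 to 0.144 and adjusted p 0.0549 to 0.0872). Covariates moved this count to 7 higher and 2 lower. Of 28 NRF2 targets 5 rose and 0 fell by edgeR (17.86% called, against 11.5% of all genes, median 0.06). The counts were 5 and 1 by DESeq2, 8 and 1 unadjusted, and 6 and 1 on the median-centred TPM scale. Me1, malic enzyme, had 2.48 to 4.92 CPM in WT (median 3.68) and 7.73 to 13.5 CPM in ob/ob (median 11.1), apart between groups (log2 fold change 1.42 ± 0.14, adjusted p = 5.97e-11). Sod3, extracellular superoxide dismutase, had 8.84 to 22.0 CPM in WT (median 16.3) and 13.8 to 58.3 CPM in ob/ob (median 39.7) (log2 fold change 1.15 ± 0.21, adjusted p = 7.14e-05). Gsta4, a glutathione transferase, had 90.1 to 125 CPM in WT (median 102) and 125 to 213 CPM in ob/ob (median 185) (log2 fold change 0.75 ± 0.11, adjusted p = 1.91e-06). Gpx3, a secreted glutathione peroxidase, had 40.0 to 59.3 CPM in WT (median 47.4) and 58.2 to 99.9 CPM in ob/ob (median 87.4) (log2 fold change 0.70 ± 0.14, adjusted p = 0.000414).

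Heat shock genes that changed were lower in ob/ob podocytes. The cells were digested in the warm and sorted before lysis, and the part of that handling in these genes was not tested. Of 16 tested, 0 were called higher (edgeR; 0 unadjusted and 0 by DESeq2) and 7 lower, with a median of -0.56. By DESeq2 9 were lower, and 12 were lower at an unadjusted p under 0.05. Hspb1 (chromosome 5, 135887919 to 135889563, plus strand), the small heat shock protein that binds actin, had 15.3 to 163 CPM in WT (median 114) and 8.15 to 48.5 CPM in ob/ob (median 28.7) (log2 fold change -1.91 ± 0.36, adjusted p = 0.00012). Hspa1a (chromosome 17, 34969190 to 34972156, minus strand), the inducible HSP70, had 64.1 to 2039 CPM in WT (median 1433) and 26.8 to 962 CPM in ob/ob (median 557) (log2 fold change -1.35 ± 0.44, adjusted p = 0.035). Dnajb1, its HSP40 partner, had 33.1 to 205 CPM in WT (median 144) and 25.8 to 98.2 CPM in ob/ob (median 61.2) (log2 fold change -1.21 ± 0.32, adjusted p = 0.00669). The lowest value of each group in Hspa1a was that of male 1, at 64.1 CPM in WT and 26.8 CPM in ob/ob. The call of Hspa1a ended without any 1 of 9 libraries (adjusted p 0.0529 to 0.077), and was kept without both of these males (adjusted p = 0.0026). The list had 5 lower calls without ob/ob male 1, 11 without both males, 4 with marker covariates, and 4 to 12 when 1 library at a time was left out. Dnaja1, another HSP40, had 141 to 433 CPM in WT (median 348) and 139.6 to 226 CPM in ob/ob (median 207) (log2 fold change -0.78 ± 0.18, adjusted p = 0.00124). Hspa1b, a near-identical copy of Hspa1a whose reads cannot be placed with certainty, was not called (log2 fold change -1.26 ± 0.49, adjusted p = 0.0962). Hsp25-ps1, a pseudogene that shares reads with Hspb1, is uncertain for the same reason (log2 fold change -2.16 ± 0.66, adjusted p = 0.0233), and its call was lost without ob/ob female 2, ob/ob female 3 or ob/ob male 1 (adjusted p 0.0512 to 0.0545).

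The promoters of both leading heat shock genes are shown with capitals on the heat shock element core GAANNTTC, where N is any base (both strands, the same letters), a motif searched after these genes had been seen to fall. They cover the 250 bases before the start in RefSeq annotation of GRCm38.p6, for Hspb1 chr5:135887669-135887918, plus strand and for Hspa1a chr17:34972157-34972406, minus strand.
Hspb1: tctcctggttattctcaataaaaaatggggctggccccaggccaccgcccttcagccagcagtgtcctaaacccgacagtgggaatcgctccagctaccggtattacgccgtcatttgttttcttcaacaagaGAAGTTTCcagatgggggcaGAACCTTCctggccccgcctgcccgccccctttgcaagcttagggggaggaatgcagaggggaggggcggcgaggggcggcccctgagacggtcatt
Hspa1a: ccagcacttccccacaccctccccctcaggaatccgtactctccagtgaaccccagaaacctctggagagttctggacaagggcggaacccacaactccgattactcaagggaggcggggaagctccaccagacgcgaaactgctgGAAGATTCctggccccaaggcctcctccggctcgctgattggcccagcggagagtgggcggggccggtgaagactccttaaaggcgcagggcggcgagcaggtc
The core starts 117 and 97 bases before the Hspb1 start and 104 bases before the Hspa1a start. The Hspa1b promoter differs from that of Hspa1a at 3 of 250 bases. Of the 17 windows of heat shock genes 10 held the core (58.82%), against 7.86% of all windows. They belong to 9 of the 11 genes with a window, and 5 of the 9 were called lower. Bag3 and Hspb8, a co-chaperone pair that also holds it, had log2 fold changes of 0.12 ± 0.10 and -0.01 ± 0.09 and were not called. The core lay in 5.683% of windows of all genes called lower, against 5.793% of those of genes tested. Heat shock genes can hold their own element by choice of the list, so its share is a description only.

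Immediate early genes, which many stimuli induce within minutes, were lower in 9 and higher in 2 of 26 tested (median -0.45). For them too the part of digestion and sorting was not tested. Ier2 had 552 to 796 CPM in WT (median 732) and 191 to 473 CPM in ob/ob (median 402) and was lower in every ob/ob library (log2 fold change -0.95 ± 0.16, adjusted p = 3.01e-05). Jun, the AP-1 subunit chosen for its level after the values were seen, had 3575 to 4826 CPM in WT (median 4075) and 1603 to 3460.1 CPM in ob/ob (median 2556), also without overlap (log2 fold change -0.74 ± 0.13, adjusted p = 5.46e-05). Btg2, an antiproliferative gene, had 709 to 1255 CPM in WT (median 921) and 302 to 889.9 CPM in ob/ob (median 531) with overlap (log2 fold change -0.77 ± 0.19, adjusted p = 0.00445). The 2 that were higher had 1 or 2 libraries far above the rest. Fosl2, another AP-1 subunit, had 111 to 210.4 CPM in WT (median 150.1) and 157 to 715 CPM in ob/ob (median 216) (log2 fold change 0.88 ± 0.24, adjusted p = 0.00986), with its highest value in ob/ob male 2, without which the call ended (adjusted p = 0.144). Nr4a2, an orphan nuclear receptor, had 2.65 to 4.40 CPM in WT (median 3.14) and 3.46 to 20.5 CPM in ob/ob (median 4.97) (log2 fold change 1.46 ± 0.32, adjusted p = 0.000935), with 20.5 CPM in ob/ob male 2 and 19.0 CPM in ob/ob male 4. This list had 9 lower calls without ob/ob male 1 and 8 without both males 1.

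Few markers of tubule and renin cells were tested, but their called shares exceeded the 11.5% of all genes. Of 8 proximal tubule markers tested 2 were higher (25%, median log2 fold change 1.10), Slc34a1 among them. Of 5 distal nephron markers 1 was higher (20%, median 1.06), Slc12a3. Without ob/ob male 1 all 3 calls were lost. The renin gene Ren1 and Crip1 were the 2 of 4 renin-cell markers called higher (50%, median log2 fold change 0.78). Ren1 had a median of 0.0574 CPM in WT and 0.499 CPM in ob/ob, here without TMM scaling (log2 fold change 4.13, adjusted p = 0.000905). The part of tubule or renin-cell RNA in these values was not tested. Crip1 had 3.26 to 5.78 CPM in WT (median 4.52) and 4.41 to 10.2 CPM in ob/ob (median 6.65) (log2 fold change 0.58 ± 0.16, adjusted p = 0.0121), and its call was lost without ob/ob female 1 or ob/ob male 1 (adjusted p 0.053 to 0.0537). Ntrk3, on the smooth muscle list though abundant in these podocytes, had 279 to 330.3 CPM in WT (median 314) and 280.5 to 458 CPM in ob/ob (median 350.0) (log2 fold change 0.28 ± 0.08, adjusted p = 0.0092), a call lost without ob/ob female 4 (adjusted p = 0.0534). The erythroid markers summed to 0.292 to 0.983 CPM in WT and 0.444 to 6.10 CPM in ob/ob, and the neutrophil markers to at most 0.374 CPM in any library.

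Podocytes of 6 and 12 weeks (8 WT and 8 ob/ob libraries each) show what was shared with younger mice. Of the 1966 genes called at 18 weeks, 1167 (59.4%) were called with the same sign at 6 weeks, 1365 (69.4%) at 12 weeks and 982 (49.9%) at both. A further 411 (20.9%) were called at 18 weeks alone, but none of these is shown to be particular to that age, since no gene passed the test of the difference from 12 weeks. The ob/ob effect differed between 18 and 6 weeks for 33 genes (0.192%), 17 of them more positive at 18 weeks, and between 18 and 12 weeks for 0 (edgeR, 1365 at an unadjusted p under 0.05, and 10 by DESeq2). The podocyte libraries held a median of 28357935 counts at 6 weeks, 30537769 at 12 weeks and 16132250 at 18 weeks, so that age and depth cannot be told apart.

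Several of the 33 genes encode matrix. Tnc, the matricellular protein tenascin-C, went from 0.942 ± 0.622 CPM in WT and 0.263 ± 0.247 CPM in ob/ob at 6 weeks (SD, n = 8 each) to medians of 0.652 and 4.94 CPM at 18 weeks. Its log2 fold change was -1.83 at 6 weeks, 0.84 at 12 weeks and 3.43 at 18 weeks (difference of 18 from 6 weeks 5.27 ± 0.88, adjusted p = 0.00101). Col1a1, the fibrillar collagen chain, gave -1.18, 0.57 and 2.52 (difference 3.70 ± 0.77, adjusted p = 0.0164), at levels of at most 2.24 CPM. Hspg2 gave -0.83, 0.66 and 1.72 (difference 2.55 ± 0.41, adjusted p = 0.000922). In all 3 the sign at 6 weeks was opposite to that at 18 weeks. Col5a3, a fibrillar collagen chain, took the reverse course, with 0.06, -1.37 and -2.02 (difference -2.08 ± 0.47, adjusted p = 0.0332).

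Other effects also grew or shrank with age. Hpgds rose with 1.08, 3.52 and 4.06 at 6, 12 and 18 weeks (difference 2.98 ± 0.49, adjusted p = 0.000922), and R3hdml with 0.68, 1.67 and 2.45 (difference 1.77 ± 0.25, adjusted p = 0.000195). At 18 weeks R3hdml had 2.03 to 6.17 CPM in WT (median 3.55) and 11.8 to 30.6 CPM in ob/ob (median 18.4), with the groups apart. Scd1 declined from 2.52 to 1.09 and 0.84 (difference -1.68 ± 0.27, adjusted p = 0.000922), and Adamtsl5, a secreted protein of the ADAMTS-like family, from 1.47 to 0.52 and 0.29 (difference -1.18 ± 0.24, adjusted p = 0.00997). In both the effect at 6 weeks was the highest of the 3 ages. Of the 33 genes, 20 had opposite signs at 6 and 18 weeks, 27 were called at 18 weeks and 19 at 6 weeks. Ucp2, a mitochondrial carrier, was one of those with called effects of opposite sign, -0.30 and 0.34 (difference 0.64 ± 0.12, adjusted p = 0.00697), as was Acsl1, an acyl-CoA synthetase, with -0.23 and 0.30 (difference 0.53 ± 0.09, adjusted p = 0.000922).

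**Figure D5:**
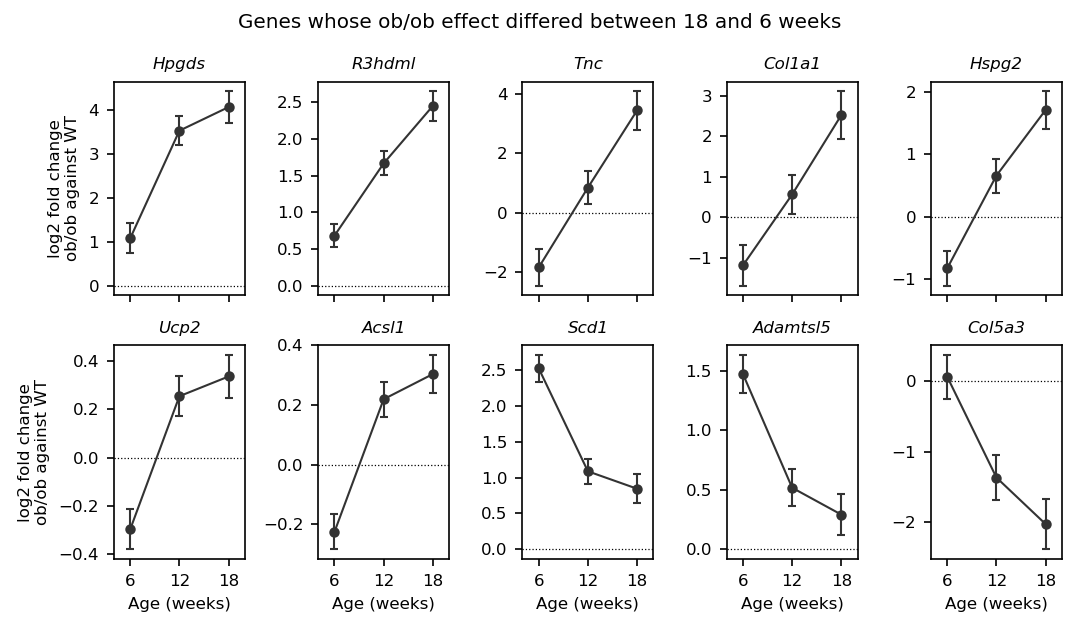
Log2 fold change of ob/ob against WT podocytes at 6, 12 and 18 weeks (n = 8, 8 and 7 libraries per group) for 10 of the 33 genes whose effect differed between 18 and 6 weeks. Points are estimates, bars are ± SE, dotted lines mark 0, and each panel has its own vertical axis. Tnc, Col1a1, Hspg2, Ucp2 and Acsl1 change sign between 6 and 18 weeks.

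Several of the leading genes at 18 weeks had effects of similar size at 6 weeks, which Hpgds, described above, had not. The remaining leading genes are not given here at 6 weeks. Lgals3 gave 4.28, 4.84 and 4.33 at the 3 ages on the log2 scale, Thbd 4.19, 5.02 and 4.97, Clu 3.90, 3.67 and 4.15, and Gdnf 3.78, 3.17 and 3.81. Ptpru fell with -1.59, -2.04 and -1.76. For Acta2 and Tagln the effects at 6 weeks were -0.78 and 0.46 and at 12 weeks 0.78 and 0.18, none of them called. Their differences of 18 from 6 weeks were 3.62 ± 0.91, adjusted p = 0.0722 and 1.27 ± 0.36, adjusted p = 0.133, so neither was among the 33.

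No gene passed the test of a difference between females and males. In the 14 libraries alone the ob/ob effect differed between the sexes for 0 of 14010 genes by edgeR, with 568 at an unadjusted p under 0.05. Spon2 had log2 fold changes of 6.06 in females and 5.52 in males, Slpi 5.96 and 4.00, and Hspb1 -1.87 and -1.99, with 3 WT and 4 ob/ob females and 4 WT and 3 ob/ob males.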

How the data were processed

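Sorted podocytes were profiled by bulk RNA sequencing with a stranded SMART-Seq kit and single reads. Ribosomal cDNA was depleted before the final amplification of the libraries. Per the submitters' processing notes, read quality was looked at with FastQC 0.11.5. The authors deposited expected counts per gene, estimated by RSEM 1.3.0 from Bowtie2 2.3.3.1 alignments to mm10, and the annotation release is not given in the sources used here. They also deposited TPM (transcripts-per-million), used here only as an alternative and for the ratio of Col4a1 to Col4a3. RSEM shares reads between similar genes, so levels of near-identical copies are uncertain.

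Expected counts were rounded, low genes were removed with filterByExpr over 6 groups, and TMM factors were computed. The 46 podocyte libraries were fitted with edgeR 4.0.16 (quasi-likelihood, genotype by age groups and additive sex; R 4.3.3), and p-values were adjusted by Benjamini-Hochberg over all 17143 genes tested, with calls at an adjusted p under 0.05. Differences between ages were interaction contrasts of that fit, and the sex difference was an interaction among the 14 libraries of 18 weeks. Single values per library were compared with exact permutation tests, two-sided. The fit was tested on simulated counts. Depth was 14843968 to 19278304 counts per library at 18 weeks, and CPM near 0 rest on few reads.

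The libraries were chosen by title, but the comparison and all gene lists were chosen with earlier results of these data known. Named genes were the 12 called higher and 12 called lower of largest fold change (mean of at least 5 CPM, no predicted models, all 7 ob/ob libraries on the called side of the WT median), up to 4 called members of each list by fold change, 22 genes fixed by name, and the 5 largest differences between ages. Other genes with values, such as Jun, Cyr61, Tgfb1, Trpc6, Myl9, Bag3, Hspb8, Hspa1b, Lrp2, Cd44, Cd74, H2-Aa, Tnc, Col1a1, Col5a3, Ucp2 and Acsl1, were picked after their values were seen. A few genes that the rule names are not reported here, and list counts include them. Positions are those of GENCODE M21 on GRCm38, matched for 46005 of 46517 entries.

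Promoters were searched for the CArG box, CATTCC and the motif TGANTCA. The motif TGANNNNGC was searched as well, and GAANNTTC was added after the data were seen. Of 34 windows of NRF2 targets, TGANTCA lay in 4 (11.76%, against 7.808% of all windows). The longer TGANNNNGC lay in 16 (47.06%, against 41.34%).

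Alternatives were RLE factors, other filters, DESeq2 1.42.0, TPM with limma 3.58.1 on log2(TPM + 1), the 18-week libraries alone, no sex term, a replicate block, tubule and immune marker sums as covariates, scaling without mitochondrial genes, and libraries left out 1 at a time. Median-centred TPM, DESeq2 for the difference between 18 and 12 weeks, list counts under exclusions, a block of replicate numbers across sexes, and the removal of 2 libraries together were added after the data were seen.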

Additional observations from a re-analysis of the deposited data

Results flagged for a closer look

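Among 172 genes and 9 measures per library, each looked at in both genotypes, 29 of 362 groups of 7 (8.01%) had a library set apart by Dixon's gap test at the 95% level. Chance flags about 1 in 20 groups. Levels are CPM after TMM scaling, the sum of markers excepted.

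ob/ob male 2 was set apart in 8 of them. It was the highest ob/ob library for Fosl2 (715 CPM, the next being 297), Abca1 (105), Abcg1 (32.9), C1ra (44.5) and Bambi (30.4), and the lowest for Adamtsl5 (3.93), Hspb8 (94.2) and Il18 (7.48). ob/ob male 1 was highest for the summed proximal tubule markers (38.6 CPM, the next being 17.8), for the tubule gene Slc34a1 (5.57), and for Txnip (670.1). ob/ob male 4 was highest for Pfkfb3 (92.5 CPM, the next being 28.6), Tnfsf10 (31.9), Slc2a12 (131) and Timp3 (3353). ob/ob female 3 was highest for Ccdc80 (224), and ob/ob female 4 was highest for Bag3 (42.4) and lowest for Nfatc1 (32.0). ob/ob female 1 was lowest for Prune2 (6.47).

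Among WT libraries, female 4 was highest for F2r (262 CPM) and Irs1 (140.4) and lowest for Tlr7 (33.1). WT female 3 was highest for Dag1 (2222) and Cd44 (1.75) and lowest for Glb1 (4.35). WT male 1 was highest for Bmp7 (295), WT male 3 for Bgn (12.6) and Tagln (8.70), and WT male 2 for Adgrg1 (1.08).

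The ob/ob effect differed between 18 and 6 weeks, by the interaction test of edgeR, for 10 of the genes described. The difference of the log2 fold change at 18 weeks from that at 6 weeks was above 0 for Tnc (5.27), Col1a1 (3.70), Hpgds (2.98), Hspg2 (2.55), R3hdml (1.77), Ucp2 (0.64) and Acsl1 (0.53). It was below 0 for Col5a3 (-2.08), Scd1 (-1.68) and Adamtsl5 (-1.18).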

How the results depend on the processing

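The count of 1966 called genes stayed between 1643 and 2186 under 12 other settings, and between 1669 (without ob/ob male 4) and 1938 (without ob/ob male 2) when 1 library was left out. On deposited TPM without centring, 3590 genes were called, 623 higher and 2967 lower (17.4% higher, against 62.5%), with a median shift of -0.129 over all genes, and median-centred TPM gave 1822 (62.2% higher). Of 155 named genes tested, 145 were called, 121 of them also with any 1 library left out and 95 under every alternative, and 12 calls were lost without ob/ob male 1.

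The 33 genes that differed between 18 and 6 weeks were 110 by DESeq2 and 45 without ob/ob male 1. For 18 against 12 weeks the count of 0 became 10 by DESeq2 (Galnt10, Mrc2, Nmt1, Slc39a7, Zfand5, P4hb, Abca2, Lrpap1, Slc38a10 and Pvrl2) 1 without ob/ob male 1 (Hist1h4c) and 1 with numbers as a block across sexes (Gm8226). The mitochondrial difference was 3.13 points in females alone and 3.50 in males alone (exact permutation p = 0.0571, the smallest either design allows), and 2.94 to 3.50 with 1 library left out.

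Signs turned for differences that were not called or are small: Lamb2 to 0.023 with marker covariates, Insr to 0.059 on centred TPM and to 0.014 without ob/ob female 1, and on uncentred TPM Col4a5 to -0.031, Ctsd to -0.014, Lama5 to -0.027, Nphs1 to -0.023, Podxl to -0.066 and Synpo to -0.056. The cause was not tested.

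The labels do not say that a number pairs libraries. Residuals of same-numbered WT and ob/ob libraries correlated by -0.249 to 0.140 within a sex (6 pairs) and by 0.154 to 0.315 across the sexes (6 pairs), and 6 of 7 ob/ob libraries correlated best with a WT library of their number, a hint from the data and not from the design. With a replicate block within sex 1829 genes were called and 24 differed between 18 and 6 weeks. With numbers as a replicate block across sexes 1877 were called and 49 differed, and among the immune markers 0 were called higher. Depth limits what low genes can show: at 18 weeks 1 CPM stands for 14.8 to 19.3 counts.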
